A study of Homo sapiens with 4 samples.

Results

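A set of 10 liver genes was examined on arrays of MDS-L cells treated with 5-azacytidine (AZA): ALB, its chromosome 4 relatives AFP, AFM and GC, and the unlinked genes TTR, APOA1, APOA2, SERPINA1, FGA and AMBP. They were taken by gene name, with every gene probe on the array that carries 1 of these 10 symbols. This gave 14 probes for 10 of the 43311 gene names on the array, and 7 of the 10 genes had 1 probe only. The set was selected on the measured values of these same arrays, in which ALB stood among the largest increases with AZA, so the AZA and line differences of the members are given as descriptions.

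Each of the 4 conditions had 1 array and therefore no replicate. MDS-L is a human cell line established from myelodysplastic syndrome (MDS). MDS-L/CDA is its AZA-resistant derivative, made by transducing CDA, the deaminase that inactivates cytidine analogues; the labels do not say whether it is 1 clone. The groups were MDS-L with vehicle (0.1% DMSO), MDS-L with 1 μM AZA, MDS-L/CDA with vehicle and MDS-L/CDA with 1 μM AZA, each for 72 h, in RPMI1640 medium with 10% FBS, IL-3 and 2-mercaptoethanol. Of the MDS-L AZA and MDS-L/CDA vehicle arrays, one label field names the other treatment, and title, description and source name were followed. The titles give the dose in mM, and the description and source name, followed here, in μM.

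ALB encodes serum albumin, the main protein of blood plasma, which hepatocytes make and secrete. AFP (alpha-fetoprotein), AFM (afamin, a vitamin E carrier) and GC (the vitamin D binding protein) arose from the same ancestral gene as ALB. All lie on the long arm of chromosome 4, AFP and AFM beside ALB and GC farther off, with its probe 1671 kb away. AFP is the fetal counterpart of ALB in liver and yolk sac. TTR carries thyroid hormone and retinol binding protein, APOA1 and APOA2 are the main proteins of high-density lipoprotein, SERPINA1 is alpha-1-antitrypsin, FGA is the fibrinogen alpha chain and AMBP gives alpha-1-microglobulin and bikunin. In liver these genes are driven by factors such as HNF4A, the FOXA family and the C/EBP family, and SERPINA1 is also made by myeloid cells.

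The ALB result rests on 1 probe of 60 bases, so its sequence is shown, with the stop codon that ends the ALB reading frame in capitals. It lies on the plus strand at chr4:74285342-74286015 of hg19, a span of 674 bases that holds an intron, and 19 sense codons precede the stop.

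ALB probe: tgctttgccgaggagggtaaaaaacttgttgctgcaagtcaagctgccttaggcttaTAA

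The 2 APOA1 probes differed in whether they were flagged as well above background and are shown for that reason. Both lie on the minus strand in the coding sequence of APOA1 on chromosome 11 of hg19, at chr11:116707728-116707787 (probe 1, 55.0% G and C) and chr11:116706641-116706700 (probe 2, 68.3%).

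APOA1 probe 1: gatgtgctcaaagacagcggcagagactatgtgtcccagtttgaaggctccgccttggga
APOA1 probe 2: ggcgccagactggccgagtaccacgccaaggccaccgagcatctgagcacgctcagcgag

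AZA is known as a DNA-demethylating drug that acts at CG dinucleotides, so the 250 bases upstream of the ALB and AFP starts are shown with CG in capitals. They are RefSeq windows of GRCh38.p14 on the plus strand, at chr4:73404037-73404286 for ALB and chr4:73435971-73436220 for AFP. DNA methylation was not measured by these arrays.

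ALB upstream: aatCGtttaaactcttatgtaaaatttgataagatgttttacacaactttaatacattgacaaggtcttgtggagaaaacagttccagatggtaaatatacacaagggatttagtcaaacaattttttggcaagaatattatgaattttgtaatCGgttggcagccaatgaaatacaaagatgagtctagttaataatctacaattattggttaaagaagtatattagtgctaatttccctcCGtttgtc
AFP upstream: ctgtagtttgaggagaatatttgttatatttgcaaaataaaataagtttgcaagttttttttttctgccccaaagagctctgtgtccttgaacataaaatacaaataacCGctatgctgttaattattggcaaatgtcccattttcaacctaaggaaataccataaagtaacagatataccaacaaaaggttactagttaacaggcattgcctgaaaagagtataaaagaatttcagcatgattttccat

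The ALB window held 3 CG and the AFP window 1, and 29.3% and 14.7% of all 35116 RefSeq windows held as few or fewer. Windows were found for 7 of the 10 genes, not for GC, TTR and APOA1. AFM held 1 CG, FGA 2, APOA2 0, AMBP 5, and the 2 SERPINA1 windows 6 and 11, beside a median of 11 over all windows. TATAAA lay on the gene's own strand 29 bases upstream of AFP and 30 upstream of AFM, was not in the ALB window, and occurred on that strand in 6.8% of all windows. CCAAT occurred on either strand in 32.0% of all windows, in the ALB window 86 bases upstream on the gene's strand and 44 on the other, in that of AFP 125 bases upstream on the other strand, and in those of AMBP and FGA. None of these matches overlapped another, and a match of letters is not a bound site.

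Signals are the scanner's processed signal in intensity units, and ratios were taken after each array was scaled to its 75th percentile. That percentile was between 37.3 and 52.9, and the dimmest signal with the scanner software's flag for well above background ranged from 9.98 to 11.1. A signal without the flag, called below background here, was set to that floor where it was dimmer, which makes the ratio a bound. No spot was saturated, all 4 arrays lay on 1 slide, and the log2 spread between spots of 1 probe was between 0.18 and 0.29. That spread is the root mean square SD over probes well above background, 263 to 274 per array of the 300 spotted 10 times. A gene was called increased with a ratio, taken without the bound, of at least 2, a Z score of at least 2 and a signal well above background on the brighter array, and decreased by the mirrored rule. Signal of CDA, which was transduced, stayed below background on every array, and the DNMT1 probe, for the methyltransferase that AZA traps, gave a ratio of 0.80 in MDS-L and 1.11 in MDS-L/CDA cells.

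AZA increased ALB in MDS-L cells from near the floor to a bright signal. The ALB probe gave 19.1 ± 3.09 with vehicle and 947 ± 94.8 with AZA in MDS-L cells, and 2.86 ± 2.88 with vehicle and 20.6 ± 3.85 with AZA in MDS-L/CDA cells (± is the scanner's error of 1 spot, not a spread between cultures). MDS-L AZA stood far above the other 3 arrays, MDS-L vehicle and MDS-L/CDA AZA lay within their errors of each other before scaling (0.36 and 0.55 of the 75th percentile after it), and MDS-L/CDA vehicle was below background. The AZA/vehicle ratio was 49.3 ± 9.38 in MDS-L cells (log2 5.62). With bounds taken at their limit, 11 of the 22257 probes with a ratio or bound in that line had a higher value. Probes dim with vehicle may stand higher than their bounds. The transcript cluster THC2544321, near ALB, gave 60.2 without the bound and was counted at 13.8. In MDS-L/CDA cells ALB was at least 2.03-fold higher with AZA, a bound set by the vehicle array; the ratio without the bound was 7.88. Whether more cells carried ALB RNA or each cell carried more cannot be told apart in RNA of whole cultures, and single arrays allow no test of how far the lines differed.

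AFP, the nearest gene to ALB, was the other member called increased by AZA, in MDS-L cells. Its probe lies 35.7 kb from the ALB probe and gave 2.44 ± 2.45 with vehicle and 52.7 ± 5.80 with AZA in MDS-L cells, and 2.62 ± 2.63 with vehicle and 2.34 ± 2.34 with AZA in MDS-L/CDA cells. MDS-L AZA alone was well above background. AFP was therefore at least 5.25-fold higher with AZA in MDS-L cells (log2 2.39), and no ratio exists in MDS-L/CDA cells. The call was lost with normexp background correction (1.68-fold) and where signal was required on both arrays.

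AFM and GC, the other relatives of ALB on chromosome 4, were not well above background on any array. The AFM probe, 81.9 kb on the far side of AFP, gave 2.27 and 2.4 in MDS-L vehicle and AZA and 2.51 and 2.20 in MDS-L/CDA vehicle and AZA. The GC probe, 1671 kb on the other side of ALB, gave 2.5, 2.58, 2.86 and 2.67 in the same order. Within the albumin family, signal was thus seen for the neighbouring pair ALB and AFP and not for AFM or GC, whose probes give only an upper limit.

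**Figure D1:**
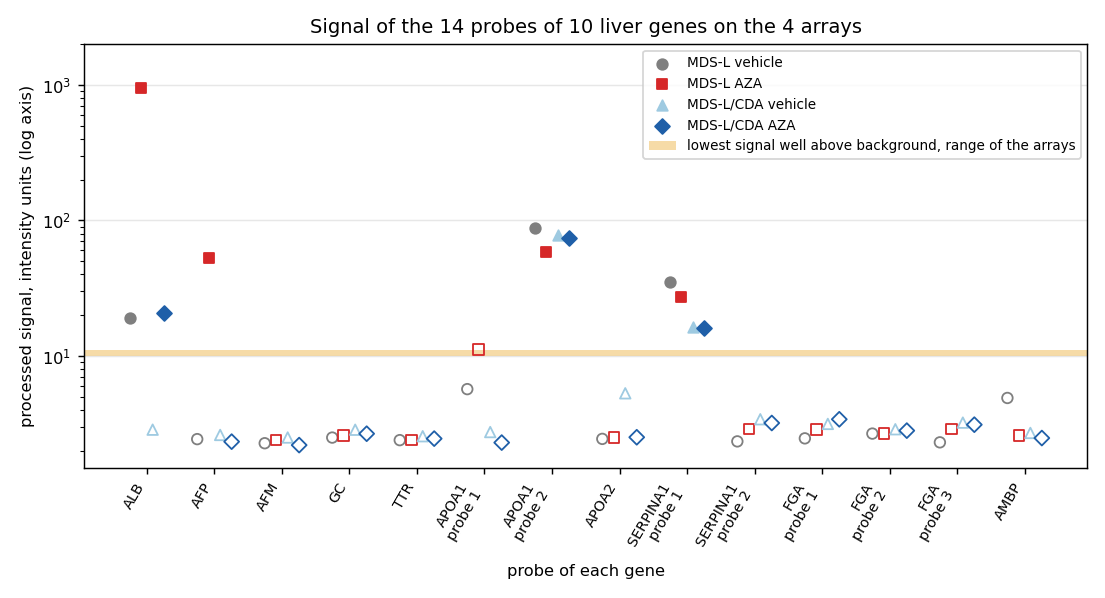
Processed signal (intensity units, log axis) of the 14 probes of the 10 liver genes, with 1 point per array; filled points were well above background and open points were not, and the band spans the lowest signal well above background on the arrays (9.98 to 11.1). ALB (947) and AFP (52.7) stand out on the MDS-L AZA array, APOA1 probe 2 and SERPINA1 probe 1 are seen on all 4 arrays, and the other probes were flagged on no array, although APOA1 probe 1 (11.1 in MDS-L AZA) reached the band.

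Of the unlinked genes, APOA1 and SERPINA1 were measured on every array and neither was called with AZA. APOA1 probe 2 gave 87.4 ± 9.01 with vehicle and 58.5 ± 6.28 with AZA in MDS-L cells, and 78.1 ± 8.18 with vehicle and 73.7 ± 7.76 with AZA in MDS-L/CDA cells. The 4 arrays lay close together, with MDS-L AZA the lowest. The AZA/vehicle ratio was 0.67 ± 0.099 in MDS-L cells (log2 -0.59), against 1.03 ± 0.15 in MDS-L/CDA cells (log2 0.05). APOA1 probe 1 gave 5.70, 11.1, 2.75 and 2.30 on the same arrays, never flagged as well above background. Its signal in MDS-L AZA (11.1 ± 2.91) was over the floor of that array (10.1), so no statement on expression is drawn from the dimness of this probe.

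SERPINA1, which myeloid cells also make, gave with probe 1 a signal of 35.3 ± 4.17 with vehicle and 27.4 ± 3.65 with AZA in MDS-L cells, and 16.5 ± 2.96 with vehicle and 16.1 ± 2.82 with AZA in MDS-L/CDA cells. Both MDS-L arrays were higher than both MDS-L/CDA arrays before and after scaling. The AZA/vehicle ratio was 0.77 ± 0.14 in MDS-L cells (log2 -0.38), against 1.07 ± 0.27 in MDS-L/CDA cells (log2 0.09), and MDS-L/CDA over MDS-L was 0.60 ± 0.13 with vehicle and 0.83 ± 0.18 with AZA. Probe 2 of SERPINA1, which is assigned to another transcript, was between 2.35 and 3.42 and not well above background.

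The remaining members were not seen at this sensitivity. TTR, APOA2, AMBP and all 3 FGA probes, together with AFM and GC, make up 6 genes with 8 probes whose signals lay between 2.20 and 5.31 on the 4 arrays. The highest of them were APOA2 in MDS-L/CDA vehicle (5.31) and AMBP in MDS-L vehicle (4.90), both under the floor. No fold is given for these genes.

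Counted by gene, 3 members were well above background with vehicle (ALB, APOA1 and SERPINA1) and 4 with AZA (AFP added) in MDS-L cells, and 2 with vehicle (APOA1 and SERPINA1) and 3 with AZA (ALB added) in MDS-L/CDA cells. Among the 17447 names of protein-coding genes on the array, the share was 60.3%, 62.6%, 57.9% and 58.3% in the same order. AZA increased 2 of the 10 members in MDS-L cells, beside 1.84% of all gene names, and 1 of 10 in MDS-L/CDA cells, beside 0.884%. AZA decreased 0 of 10 in either line, beside 1.28% in MDS-L and 1.35% in MDS-L/CDA cells. Since ALB's ratio led to the choice of the set, nothing is read from these counts.

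Between the lines, ALB was lower in MDS-L/CDA cells under both treatments. With vehicle, ALB was at least 1.33-fold higher in MDS-L than in MDS-L/CDA cells, the only decrease called among the members, beside 1.33% of all gene names. With AZA it was 32.3-fold higher in MDS-L cells (log2 of MDS-L/CDA over MDS-L, -5.02), and AFP was at least 3.37-fold higher, the 2 decreases called beside 1.67% of gene names. These values come from the same 4 arrays as the AZA ratios and are not independent of them.

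Around ALB, the genes called increased with AZA all lay on the side of AFP, as did most genes that could be measured. On the other side only MOB1B, DCK, ANKRD17 and lnc-ALB-1 were well above background on any array. The 2 sides can therefore not be compared. Within 2.5 Mb of the ALB probe the array held 67 other gene names, of which 19 were well above background on at least 1 array and 48 on none. Names were counted as the array gives them, so THC2544321 and CXCL8, whose probes lie close together, count separately. AZA increased 6 of the 67 in MDS-L cells (AFP, THC2544321, PPBP, CXCL3, CXCL2 and EPGN) and 4 in MDS-L/CDA cells (THC2544321, PPBP, CXCL3 and CXCL2), beside 1.84% and 0.884% of all gene names, and decreased 0 in either line.

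Of the chemokine genes there, PPBP (the platelet basic protein, 568 kb from ALB) gave 23.5 with vehicle and 308 with AZA in MDS-L cells, and 11 with vehicle and 32.1 with AZA in MDS-L/CDA cells. Its ratio was 13 in MDS-L cells, against at least 3.17 in the other line, and the order of its signals over the 4 arrays was the same as for ALB. CXCL3, a neutrophil attractant, gave 28, 126, 22.6 and 50.9 in the same order, 4.48-fold and 2.47-fold. CXCL2, of the same family, had 2 probes, with ratios of 4.07 and 2.02 in MDS-L cells, against 2.92 and 2.09 in MDS-L/CDA cells. The brighter CXCL2 probe (220 with vehicle and 447 with AZA in MDS-L cells, ratio 2.02) did not reach the Z score in that line. Both lines thus shared the increases of PPBP, CXCL3 and CXCL2 by the calling rule. AFP was called in MDS-L cells and had no ratio in the other line.

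THC2544321, a transcript cluster with no gene symbol whose probe lies 322 kb from ALB, gave 2.28, 138, 2.47 and 21.8, at least 13.8-fold and at least 2.15-fold. The probe of CXCL8 lies close to that of THC2544321, at 323.6 kb from ALB beside 322.3 kb. Whether the 2 probes report the same transcript was not tested, so the cluster may not be a gene apart from CXCL8. The CXCL8 probe was well above background in MDS-L AZA only (14.9, at least 1.48-fold) and was not called. EPGN (epigen, an EGF receptor ligand) was likewise seen in MDS-L AZA only (20.3), at least 2.02-fold. CXCL5, with 2.10-fold and 1.09-fold, did not reach the Z score.

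The other genes next to ALB were not called. The long noncoding transcript lnc-ALB-1, 102 kb from ALB on the side away from AFP, was well above background in MDS-L AZA only, with signals of 5.07, 21.8, 7.78 and 3.24, at least 2.17-fold higher with AZA in MDS-L cells. RASSF6, 153 kb on the AFP side, gave 27.3, 22.7, 20.7 and 32.8, with ratios of 0.83 and 1.73. ANKRD17, 345 kb on the other side, gave 0.70 and 1.18. COX18, ADAMTS3, NPFFR2, SLC4A4, CXCL1, CXCL6, PF4 and PF4V1 were among the names below background on all arrays. On the AFP side lnc-CXCL2-1, 858 kb from ALB, gave ratios of 0.66 and 1.77. Farther out, DCK, MOB1B, EREG, RCHY1, THAP6, G3BP2 and USO1 were measured on all 4 arrays, with ratios of their brightest probes between 0.66 (G3BP2 in both lines) and 1.85 (MOB1B in MDS-L).

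**Figure D2:**
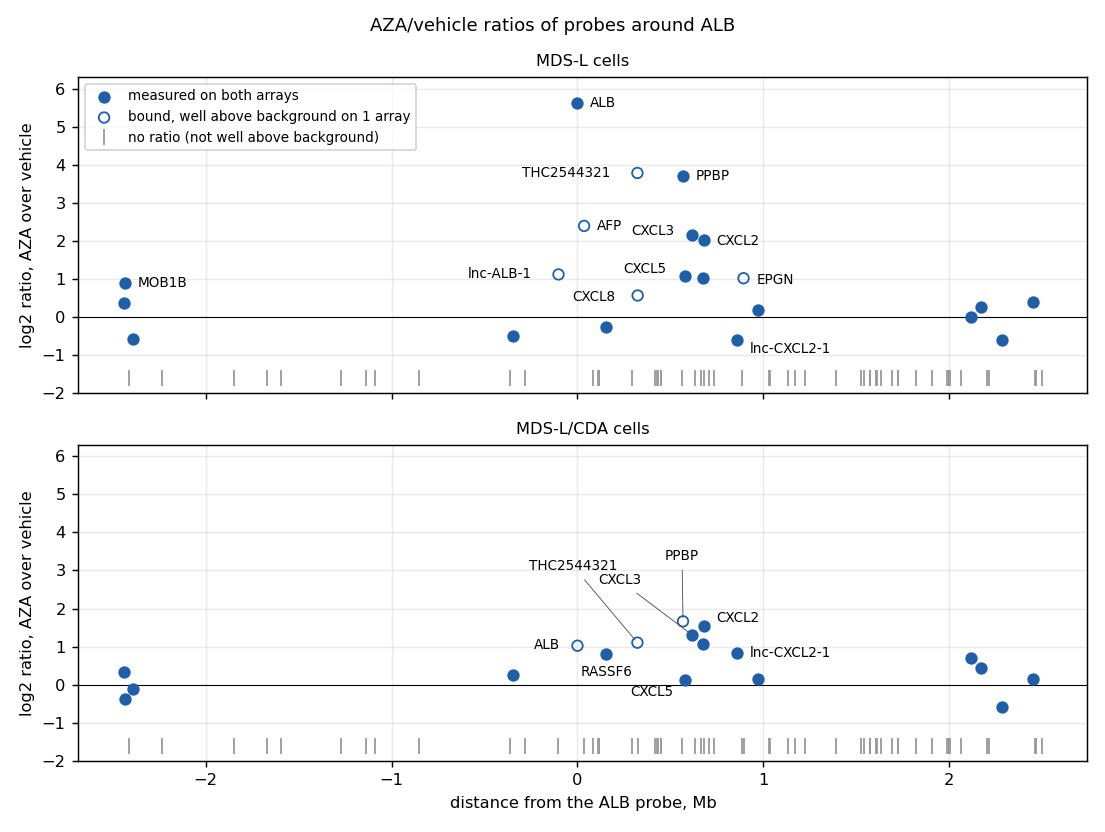
Log2 AZA/vehicle ratio of each probe within 2.5 Mb of ALB against its distance from the ALB probe (Mb), for MDS-L cells (top) and MDS-L/CDA cells (bottom). Filled points were measured on both arrays, open points are bounds, and ticks mark probes without a ratio; ALB (5.62), THC2544321 (3.78), PPBP (3.70) and AFP (2.39) are drawn far above 0 in MDS-L cells, THC2544321 and AFP as bounds, and no point in MDS-L/CDA cells is drawn above 1.66.

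Beyond the members, 81 other plasma protein genes were listed. They were well above background for 15, 21, 13 and 15 genes on the arrays of MDS-L vehicle, MDS-L AZA, MDS-L/CDA vehicle and MDS-L/CDA AZA, and 59 were below background on all, where 57.9% to 62.6% of the names of protein-coding genes were well above it on each array. AZA increased 6 of the 81 in MDS-L cells (AGT, APOC1, APOC2, C8G, IGFALS and SERPINF1) and 1 in MDS-L/CDA cells (APOC4), beside 1.84% and 0.884% of all gene names, and decreased 0. Among genes well above background on both arrays of a line, the median log2 ratio was 0.10 over 14 genes in MDS-L cells, beside -0.16 over 15112 gene names, and 0.21 over 12 genes in MDS-L/CDA cells, beside 0.01 over 14143.

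Apolipoproteins of the APOE cluster on chromosome 19 made up 2 of these 6 calls. APOC2, the activator of lipoprotein lipase, gave 492, 1237, 318 and 331, a ratio of 2.5 in MDS-L and 1.14 in MDS-L/CDA cells. APOC1 was seen in MDS-L AZA only (45.5, at least 4.52-fold). APOC4 gave 10.9, 31.5, 2.63 and 14.4, at least 2.87-fold in MDS-L cells without reaching the Z score and at least 1.42-fold in MDS-L/CDA cells, where it was called on the ratio without the bound. APOE itself had ratios of 1.68 and 1.18 and was not called.

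The other calls were of varied function. C8G, a subunit of the complement component C8, gave 39.7, 236, 38.0 and 47.3 with its brighter probe, 5.90-fold and 1.36-fold, while its other probe gave 1.46 and 1.27. SERPINF1, an antiangiogenic serpin, was well above background in MDS-L AZA only (37.4, at least 3.72-fold). IGFALS, the acid-labile subunit that carries insulin-like growth factors, was also seen there only (17.4, at least 1.73-fold), and so was AGT, angiotensinogen (14.4, at least 1.44-fold). The best known hepatocyte products of the list, such as FGB, FGG, APOB, APOH, HP, TF and AHSG, were below background on all arrays. LEAP2 was the lowest of the measured list genes, at 0.39 and 0.53 with its brighter probe, and did not reach the Z score.

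Liver enzymes and carriers showed no call with AZA in either line. Over all gene names, AZA increased 1.84% and decreased 1.28% in MDS-L cells, and increased 0.884% and decreased 1.35% in MDS-L/CDA cells. On each array 57.9% to 62.6% of the names of protein-coding genes were well above background. Of the 49 enzyme and carrier genes on the array, 12, 13, 8 and 8 were so in the same order, 35 on none. Among those seen on both arrays of a line, the median log2 ratio was 0.21 over 11 genes in MDS-L and 0.26 over 8 genes in MDS-L/CDA cells. CPS1, the first enzyme of the urea cycle, gave 62.8, 73.0, 22.0 and 21.3, with ratios of 1.15 and 1.06. By the calling rule CPS1 was lower in MDS-L/CDA cells with vehicle, beside 1.33% of all gene names. With AZA, ASS1 (its dimmer probe) and HPD were called lower in that line, beside 1.67%. FAH, the brightest gene of the list, gave 6212.2, 7189.5, 7322.5 and 8066.3 in the same order, with ratios of 1.15 and 1.21. ABCC2, AMACR, ASGR1, ASL, ASS1, CPS1 and GNMT were also well above background on every array. CYP3A4, TAT, PCK1, ARG1, FABP1 and OTC were among the 35 genes below background on all arrays.

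Of 36 liver transcription factors, 17, 21, 16 and 16 were well above background in the same order, beside 57.9% to 62.6% of protein-coding names. AZA increased 1 of the 36, NR2F2, in MDS-L cells, beside 1.84% of all gene names. NR2F2 (COUP-TFII, an orphan nuclear receptor) gave 43.1, 188, 40.7 and 47.1, 4.34-fold in MDS-L and 1.26-fold in MDS-L/CDA cells. This count moved with the processing, from 0 with median scaling to 5 without the Z score or with scaling on probes seen on all arrays. Among factors seen on both arrays of a line, the median log2 ratio was -0.16 over 17 in MDS-L and -0.07 over 16 in MDS-L/CDA cells.

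The factors best known for driving ALB in liver differed in whether they were seen. Among those below background on all 4 arrays were HNF4A, HNF4G, FOXA1, FOXA2, HLF, PROX1, ONECUT1, NR5A2, NR0B2, NR1H4, NR1I2, NR1I3 and ZHX2, a repressor of AFP in liver. The C/EBP factors, shared by liver and myeloid cells, were bright: CEBPA gave 6567, 3982, 5169 and 3449 (ratios 0.60 and 0.73) and CEBPB gave 1889, 3379, 1652 and 1525 (ratios 1.78 and 1.01). DBP, a PAR-domain factor first found at the ALB promoter, gave ratios of 0.68 and 0.60. None of CEBPA, CEBPB and DBP was called, but CEBPB was called increased in MDS-L cells with either quantile normalization, with the authors' value table and with scaling on probes seen on all arrays.

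CREB3L3, a membrane-bound hepatic factor, was well above background in MDS-L AZA only (31.3, at least 3.11-fold), as were FOXA3 (17, at least 1.70-fold), NR2F1 (15.9, at least 1.58-fold) and GATA4 (15.2, at least 1.51-fold). None of these was called, and the ratio of ATF5, 2.44 in MDS-L cells against 1.05 in MDS-L/CDA cells, did not reach the Z score, although the 4 settings that called CEBPB called ATF5 too. The other factors seen (CEBPD, CEBPE, CEBPG, ONECUT2, GATA6, TBX3, TEF, NFIL3, ZBTB20, HHEX, PPARA and RXRA) had ratios of their brightest probes between 0.57 (ONECUT2) and 1.26 (CEBPE) in MDS-L cells.

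**Figure D3:**
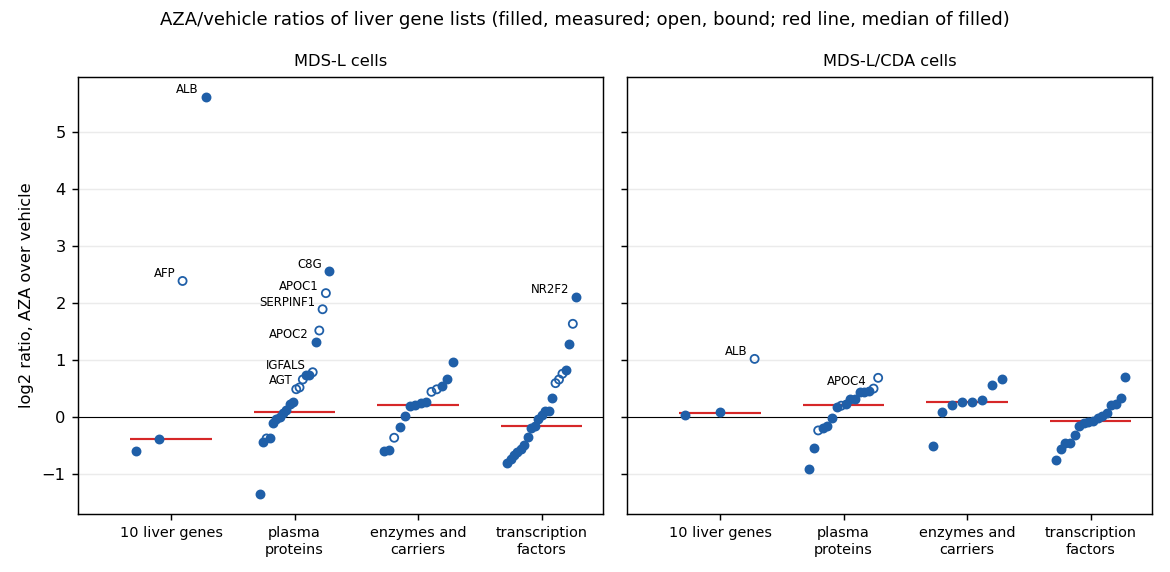
Log2 AZA/vehicle ratio of the brightest probe of each gene with a ratio or bound, for the 10 liver genes and 3 lists of liver genes, in MDS-L cells (left) and MDS-L/CDA cells (right); red lines are medians of the genes measured on both arrays (filled points) and labelled genes were called increased. Among genes measured on both arrays in MDS-L cells, ALB (5.62) is the highest and C8G (2.56) follows; open points are bounds and have no order.

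The cultures showed the markers of blood cells. Of 12 haematopoietic markers, 11 were well above background on each MDS-L array and 10 on each MDS-L/CDA array, MPO on none, and their summed signal was between 518 and 689 times the 75th percentile of the array. Among the names of protein-coding genes, the share well above background was 60.3%, 62.6%, 57.9% and 58.3% in the order of the arrays. Of 8 hepatocyte defining markers, 5, 4, 3 and 4 were seen in that order, among them SERPINA1, which myeloid cells also make. Their summed signal was 3.38, 21.3, 2.75 and 3.43 times the 75th percentile. ALB is itself one of these 8 markers, and without it the sums were 3.02, 3.36, 2.68 and 2.88. TTR, APOB and HNF4A were below background throughout, and CYP2E1 was seen in MDS-L vehicle only. Stromal markers were at 0 of 6 on all arrays.

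Of 5 endothelial markers, VWF alone was called increased with AZA, in both lines, beside 1.84% of all gene names in MDS-L and 0.884% in MDS-L/CDA cells. PECAM1 and VWF were seen on all arrays and CDH5, KDR and TEK on none, with a summed signal of 1.35, 6.90, 1.19 and 3.40. VWF gave 24.7, 286, 23.5 and 103, with ratios of 11.5 in MDS-L and 4.78 in MDS-L/CDA cells. The brightest probe of PECAM1 gave 2.22 and 1.02 and was not called. Of 5 epithelial markers KRT8 and KRT18 were seen on all arrays, with a summed signal between 6.73 and 9.75. Among the 12 haematopoietic markers AZA increased KIT and GATA2 in both lines, beside the same shares of all gene names. It decreased CD38 in MDS-L cells, beside 1.28%. The part of other cell types in the ALB and AFP signals was not tested.

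By the signals as measured, the 5 genes with the profile most like that of ALB over the 4 arrays were TFF3, PRG2, LMNA, OOSP1 and UCA1. Likeness was the Euclidean distance between log2 profiles centred on their mean, among probes well above background on the same 3 arrays as ALB, and the distances were 1.34, 1.55, 1.70, 2.08 and 2.13 log2 units. The signals in MDS-L/CDA vehicle were below background, and with these set to the floor PRG2 (0.69) came before TFF3 (0.96) and LMNA (1.40), followed by PPBP (1.73) and FAM132A (1.96) in place of OOSP1 and UCA1, so the order is not firm. TFF3, a secreted trefoil peptide, gave 21.0, 448, 4.63 and 14.5, and PRG2, the eosinophil major basic protein, gave 14.7, 1412, 8.95 and 19.8. LMNA, which encodes lamins A and C, gave 13.8, 255, 4.03 and 13.5. All 5 had their highest signal in MDS-L AZA and their lowest in MDS-L/CDA vehicle, which follows from how they were chosen. None of TFF3, PRG2, LMNA, OOSP1 and UCA1 lies on chromosome 4, but PPBP, among the 5 nearest at the floor, does, 568 kb from ALB.

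**Figure D4:**
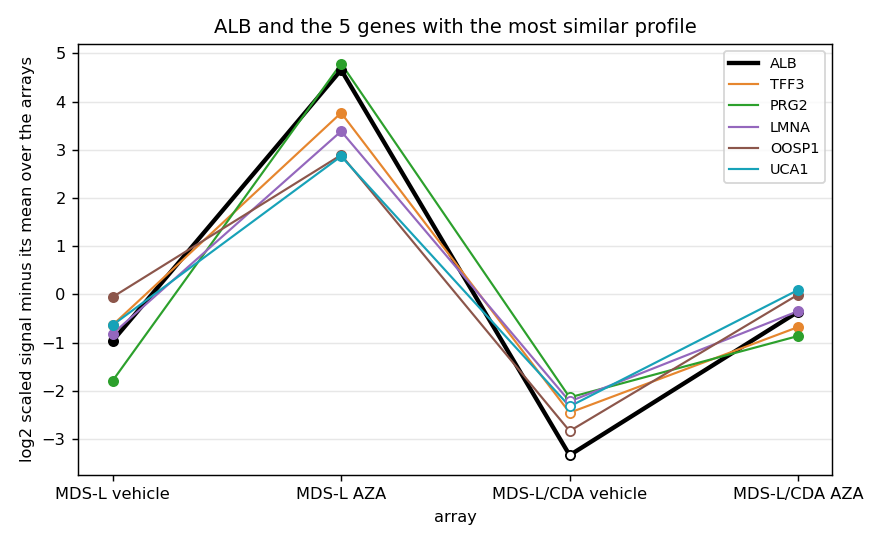
Log2 scaled signal of ALB and of the 5 genes nearest to it in profile, each minus its mean over the 4 arrays, against the array; open points were not well above background. All 6 profiles peak in MDS-L AZA and are lowest in MDS-L/CDA vehicle.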

How the data were processed

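RNA of 4 cultures, 1 per condition, was hybridized to one-colour (Cy3) Agilent arrays with 60-base probes. The authors deposited the scanner output of Feature Extraction 10.7.1.1, intensity values with background subtracted within each array and no scaling between arrays, and a table of processed intensity values, which served as an alternative. Probe names and positions are those of hg19 in the deposited files.

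Without control spots and 16 probes flagged as outliers, 58185 probes remained. Their log2 signals were averaged over spots, and each array was scaled to its 75th percentile. The rule of ratio and Z score follows the paper's methods; the Z score, the log2 ratio over its SD in 10 bins of mean signal, was defined here. Passing with any 1 probe was enough for a gene to be counted. For bounds, a dim signal was set to its array's floor unless its own value was higher. The number of arrays limits the precision.

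The members, the gene lists and the tests were chosen with earlier results of these data known. Named genes are the members, genes with a probe within 2.5 Mb of ALB, list genes called with AZA in either line, liver transcription factors seen on any array, the 5 nearest profiles, DNMT1 and CDA; others were named after their values were seen. Python 3.11.15, numpy 2.4.6, pandas 2.3.3, matplotlib 3.10.9, R 4.3.3 and limma 3.58.1 were used. Upstream windows came from RefSeq, GRCh38.p14. Alternatives were 7 normalizations, other filters on dim probes, other thresholds and other rules for several probes. Some list genes are not reported here.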

Additional observations from a re-analysis of the deposited data

Results flagged for a closer look

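Genes near ALB whose brightest probe moved in opposite directions in the lines, each by more than the spread between spots, were lnc-CXCL2-1 and MOB1B. The log2 ratio of AZA over vehicle was -0.61 in MDS-L and 0.82 in MDS-L/CDA cells for lnc-CXCL2-1. For MOB1B it was 0.89 in MDS-L and -0.37 in MDS-L/CDA cells, while the other MOB1B probe gave 0.37 and 0.32. Neither gene was called in either line, and with 1 array per condition the differences were not tested.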

How the results depend on the processing

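The log2 ratio of ALB in MDS-L cells, 5.62, moved by more than the spread between spots under 2 of the 7 other normalizations, to 5.08 with median scaling and 3.47 with normexp background correction, which adds an offset of 50 to every signal. In MDS-L/CDA cells the bound of 1.02 became 0.18 with normexp, and the ratio without the bound was 2.98. Median scaling moved the median log2 ratio of all gene names in MDS-L cells from -0.12 to -0.68. Requiring every probe left 2 members well above background in MDS-L AZA in place of 4. With normexp, or with signal required on both arrays, AZA increased 1 member (ALB) in MDS-L and 0 in MDS-L/CDA cells. Of the plasma protein genes, 6 in MDS-L cells became 3 with median scaling, 2 with normexp or with signal required on both arrays, and 10 without the Z score. The 1 gene in MDS-L/CDA cells became 0 with normexp, with signal required on both arrays or with a lower bound of at least 2, and 2 without the Z score. AFP in MDS-L cells, 2.39, became 1.85 with median scaling and 0.74 with normexp. No direction of ALB, AFP, APOA1 or SERPINA1 in MDS-L cells reversed under the alternatives run, where APOA1 reached -1.13 and SERPINA1 -0.92 with median scaling. The settings for AFP, APOA1, SERPINA1, the liver transcription factors, the profiles at the floor, the list medians and the marker sum without ALB were chosen after seeing the data. No paired analysis was possible because each condition has 1 array. Ratios against a signal under the floor are bounds, and no other error than that of the spots is known.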
